A study of Mus musculus with 8 samples.

Results

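The 10 genes described here set the pace of the G1 phase of the cell cycle: the D-type cyclins Ccnd1, Ccnd2 and Ccnd3, the E-type cyclins Ccne1 and Ccne2, the cyclin-dependent kinases Cdk4, Cdk6 and Cdk2, the kinase inhibitor Cdkn1b (p27) and the transcription factor E2f1. They were taken by name from the 54532 genes of a count table, through their Ensembl identifiers. The rule itself uses no measured value, but the set was proposed with earlier results of these data known. The table held 8 bulk RNA-seq libraries of mouse intestinal organoids, 4 labelled control and 4 treated with RANKL, the ligand of the receptor RANK. Each library was read near the 3′ end of its transcripts, so that a gene's count did not scale with transcript length. The question was how the G1 machinery of the organoids stood under RANK stimulation.

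In G1, D-type cyclins bind CDK4 and CDK6 and start the phosphorylation of the retinoblastoma protein, which then releases E2F factors. E2F factors switch on Ccne1, Ccne2 and the genes of DNA replication, and the E-type cyclins with CDK2 carry the cell into S phase. p27 binds these complexes and holds CDK2 back, and in the intestinal crypt this switch is active in the stem cells and the transit-amplifying progenitors.

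The sample labels gave treatment and tissue only, and not the strain, genotype, age or sex of the mice, and how much RANKL was given, and for how long, was not given in the sources used here. Organoids of the study were grown from crypts in Matrigel with EGF, Noggin and R-spondin, without stroma or blood supply. Nothing said that the 4 libraries of a group came from separate mice or organoid lines, so that p-values measure only the spread between these libraries. Levels are given as CPM, a gene's count scaled to a common library size. Total counts ran from 583663 to 7807298 in the control and from 613135 to 1923354 in the RANKL group. The shallowest libraries, control replicate 4 and RANKL replicate 1, were followed by RANKL replicate 2 at 1438710 counts. The epithelial markers summed to 6875 to 7998 CPM in control and 6559 to 7134 CPM in RANKL libraries. Of the 7, 3 were lower with RANKL, Krt18 (log2 fold change -0.70), Cldn7 (-0.53) and Krt19 (-0.30), and 0 were higher. Over all genes tested, 12.4% were lower and 13.6% higher at the threshold given below, the background for the marker counts in this paragraph. The fibroblast, immune, endothelial and smooth muscle lists summed to at most 12.04 CPM in any library. The M cell list summed to 35.7 to 41.6 CPM in control and 1650 to 1905 CPM in RANKL libraries, and all 4 tested markers were higher. Of these, Spib, Tnfaip2 and Sox8 reached at most 5.37, 4.06 and 0.268 CPM in any control library. They passed the filter on low counts only through the RANKL libraries, so that their being tested already depended on a high RANKL level. The defining M cell marker Gp2 was at 0 in all 8. The crypt base stem cell list summed to 1854 to 2277 CPM in control and 1622 to 1802 CPM in RANKL libraries, with Lgr5 and Smoc2 lower and Ascl2 higher. Olfm4 and Slc12a2 supplied most of this sum and were not past the threshold. Olfm4 had means of 1162 CPM in control and 1026 CPM in RANKL libraries (edgeR adjusted p = 0.22). Slc12a2 had means of 679.3 and 569.4 CPM (edgeR adjusted p = 0.055). The part of these cell types in the results below was not tested. In bulk RNA, fewer cells of a type cannot be told apart from less RNA per cell.

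Library values are given below in the order of replicates 1 to 4. All 10 members passed the filter on low counts, and Ccnd2 alone moved past the threshold. Of the 9971 genes tested, 25.9% were called at an adjusted p under 0.05 (edgeR quasi-likelihood test, Benjamini-Hochberg over all genes tested), 13.6% higher and 12.4% lower with RANKL. Of the members, 1 was lower and 0 were higher, a share of 10%, with 5 log2 fold changes above and 5 below 0. Their median log2 fold change was 0.05, against 0.00 over all genes tested. At an unadjusted p under 0.05, Ccnd1 and Cdk2 lay above and Ccne2 below 0, and these 3 did not pass after adjustment. The groups did not overlap for 1 member, Ccnd2, against 24.6% of the genes tested.

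**Figure D1:**
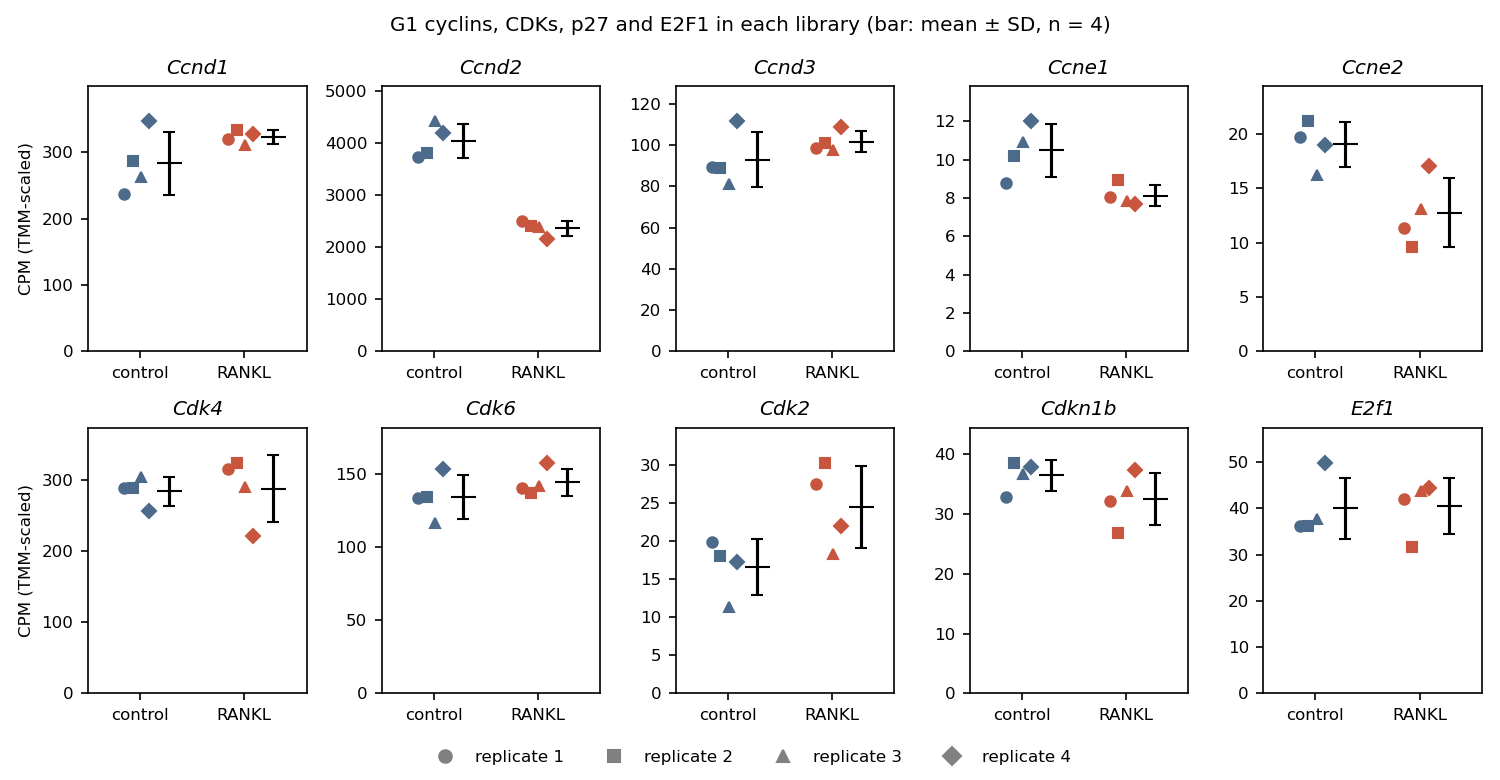
Expression of the 10 members in each library, in CPM scaled by TMM on linear axes that start at 0. Symbols mark the 4 replicates of each group and bars give the mean ± SD (n = 4). The RANKL libraries lie below every control library for Ccnd2, from 2168 to 2498 against 3745 to 4435 CPM, and the groups overlap for the other 9 genes.

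Cyclin D2, a partner of CDK4 and CDK6, was the most abundant member by far. Ccnd2 (ENSMUSG00000000184; GRCm38 chr6:127125162-127152193, minus strand) stood at 3745, 3821, 4435 and 4201 CPM in the control libraries, against 2498, 2411, 2389 and 2168 CPM in the RANKL libraries. The highest RANKL value lay well under the lowest control value. The mean fell from 4050 ± 324.8 CPM to 2366 ± 140.2 CPM (SD, n = 4 each), a 1.71-fold lower level. The log2 fold change was -0.78 (SE 0.09, 95% interval -0.97 to -0.58, edgeR adjusted p = 1.5e-07). The exact two-sided permutation test gave p = 0.0286, the smallest that the 70 assignments of 4 against 4 libraries allow. By mean CPM, Ccnd2 ranked 16 among the 9971 genes tested, and 63594 control and 13579 RANKL counts stood behind it. It made up 0.377% to 0.426% of all counts of a control library and 0.221% to 0.252% of those of a RANKL library. Without both of the shallowest libraries its log2 fold change was again -0.78, and with the library total as a covariate it was -0.82.

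Cyclin D1, the D-type cyclin most often linked to growth factor signalling, was higher in mean but not past the threshold. Ccnd1 (ENSMUSG00000070348; GRCm38 chr7:144929931-144939925, minus strand) read 236.9, 286.9, 262.5 and 347.4 CPM in the control libraries, against 319.7, 333.8, 310.3 and 327.3 CPM in the RANKL libraries. Control replicate 4 was the highest of all 8 libraries, and the other 3 control libraries lay below every RANKL library. The means were 283.4 ± 47.3 CPM in control and 322.8 ± 10.1 CPM in RANKL libraries (SD, n = 4 each). The log2 fold change was 0.22 (SE 0.11, 95% interval 0.00 to 0.44, edgeR adjusted p = 0.13), and the exact permutation test gave p = 0.171. Within the control group the level ran opposite to depth, with the highest value in the library of 583663 counts and the lowest in that of 7807298 counts. Without control replicate 4 the log2 fold change was 0.30 and passed the threshold (edgeR adjusted p = 0.03), and with the library total as a covariate it was 0.08 (edgeR adjusted p = 0.69). Those are the lowest and the highest adjusted p among its 17 alternatives.

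Cyclin D3, the remaining D-type cyclin, was measured at 81.1 to 111.8 CPM in control and 97.5 to 108.7 CPM in RANKL libraries. The RANKL range of Ccnd3 lay inside the control range, whose top was again control replicate 4. Its means were 92.9 ± 13.2 and 101.5 ± 5.08 CPM (SD, n = 4 each), and its log2 fold change was 0.18 (95% interval -0.06 to 0.42, edgeR adjusted p = 0.28). Of the 50-base words in its annotated 3′ ends, 6.01% also occurred in the pseudogene Ccnd3-ps. A small part of the Ccnd3 reads could therefore match both, and how such reads were counted was not stated.

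Taken as a family, the D-type cyclins summed to a lower level with RANKL and differed in composition. Their summed level was 4071, 4197, 4778 and 4660 CPM in the control and 2916, 2846, 2797 and 2604 CPM in the RANKL libraries. Ccnd2 supplied 92.0%, 91.0%, 92.8% and 90.2% of the D-type counts in the control libraries, against 85.7%, 84.7%, 85.4% and 83.3% in the RANKL libraries. The share of Ccnd1 ran from 5.50% to 7.45% in control and from 10.96% to 12.57% in RANKL libraries, and that of Ccnd3 from 1.70% to 2.40% and from 3.38% to 4.18%. None of these shares overlapped between the groups. They are parts of 1 sum, and the summed CPM of Ccnd1 and Ccnd3 did overlap, at 326.4 to 459.2 in control and 407.8 to 436.1 in RANKL libraries. Ccnd2 remained the main D-type transcript in all 8 libraries.

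**Figure D2:**
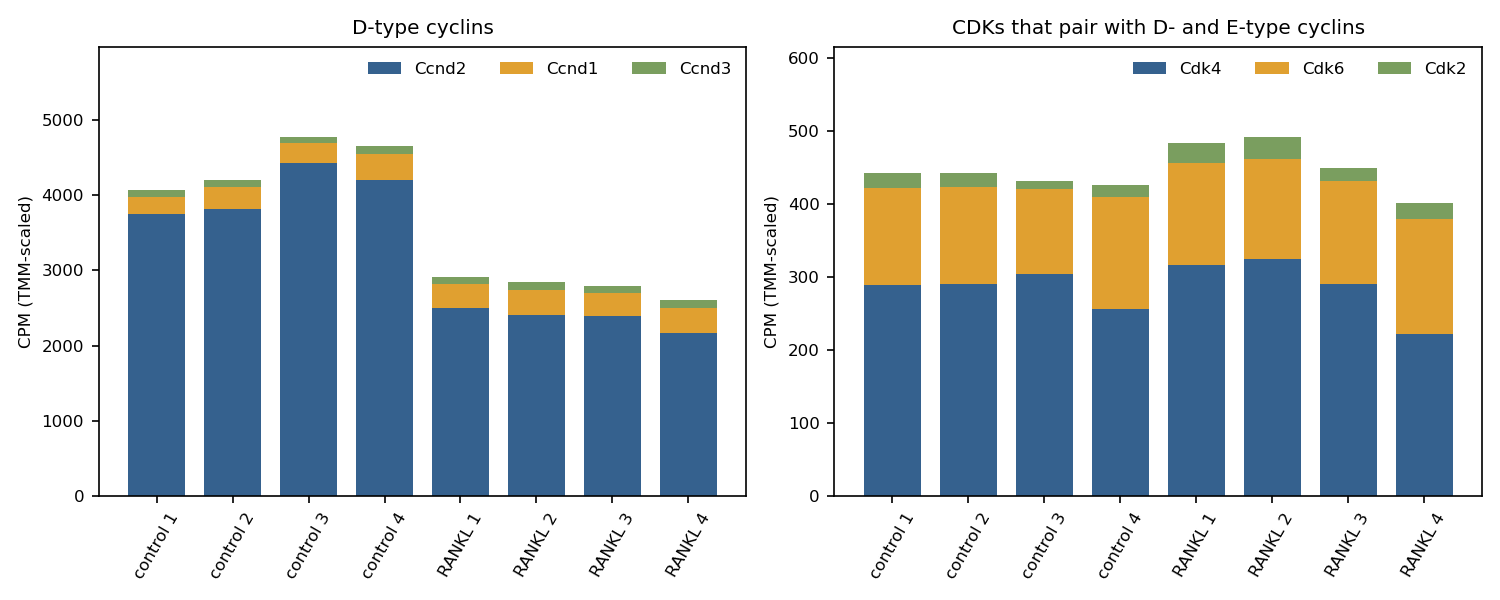
Stacked CPM (TMM-scaled, linear axes from 0) of the D-type cyclins, left, and of Cdk4, Cdk6 and Cdk2, right, in each of the 8 libraries. The D-type columns reach 4071 to 4778 CPM in control and 2604 to 2916 CPM in RANKL libraries, with Ccnd2 making up most of each, while the CDK columns overlap between the groups.

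The kinases that the D-type cyclins activate did not pass the test in either direction. Cdk4 (GRCm38 chr10:127063534-127067920) ran from 256.2 to 304.1 CPM in control and from 221.3 to 324.9 CPM in RANKL libraries, with replicate 4 the lowest of both groups. Its log2 fold change was 0.00 (95% interval -0.23 to 0.22, edgeR adjusted p = 0.98), and its sign turned with the settings, between -0.08 and 0.11. Cdk6 (GRCm38 chr5:3341485-3531008) ran from 116.3 to 153.1 CPM in control and from 137.0 to 157.6 CPM in RANKL libraries, with replicate 4 the highest of both groups. Its log2 fold change was 0.13 (95% interval -0.09 to 0.36, edgeR adjusted p = 0.41). Cdk4 supplied 60.1% to 70.4% of the counts of the 3 kinases in control and 55.2% to 66.0% in RANKL libraries. Neither interval reached down to that of Ccnd2. Of the 50-base words in the 3′ ends, 1.27% for Cdk4 and 2.54% for Cdk6 also occurred in other genes.

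CDK2, the kinase partner of the E-type cyclins, was read in 10 to 156 counts per library. Cdk2 (ENSMUSG00000025358; GRCm38 chr10:128697939-128705031, minus strand) stood at 19.9, 18.0, 11.4 and 17.2 CPM in the control libraries, against 27.5, 30.3, 18.3 and 22.0 CPM in the RANKL libraries. The groups overlapped only through RANKL replicate 3, which lay below control replicate 1. The means were 16.6 ± 3.65 and 24.5 ± 5.40 CPM (SD, n = 4 each), and the log2 fold change was 0.50 (SE 0.21, 95% interval 0.06 to 0.94). It missed the threshold in edgeR (adjusted p = 0.084), and the exact permutation test gave p = 0.0571. It passed without control replicate 1 (0.66, edgeR adjusted p = 0.034) and without RANKL replicate 3 (0.65, adjusted p = 0.046). It also passed with the replicate number as a block (0.61, edgeR adjusted p = 0.027), though nothing said that the numbers pair the libraries. Without control replicate 3 its log2 fold change was 0.32, the lowest of its alternatives, and its adjusted p ran from 0.027 to 0.31 over all alternatives.

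The E-type cyclins, which bind CDK2 and are themselves E2F target genes, were the least abundant cyclins of the set. Ccne2 (ENSMUSG00000028212; GRCm38 chr4:11191351-11204779) read 19.7, 21.2, 16.2 and 18.9 CPM in the control libraries, against 11.3, 9.64, 13.0 and 17.0 CPM in the RANKL libraries. RANKL replicate 4 lay above control replicate 3, and the other RANKL libraries lay below every control library. The means were 19.0 ± 2.09 and 12.8 ± 3.17 CPM (SD, n = 4 each). The log2 fold change was -0.54 (SE 0.22, 95% interval -0.99 to -0.09, edgeR adjusted p = 0.072), and the exact permutation test gave p = 0.0571. Ccne2 passed the threshold without control replicate 3 (-0.62, edgeR adjusted p = 0.039) and without RANKL replicate 4 (-0.73, adjusted p = 0.042), over a range of 0.039 to 0.3 for all alternatives.

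Ccne1 (GRCm38 chr7:38097984-38107534, minus strand) read 8.79, 10.2, 10.9 and 12.04 CPM in the control libraries, against 8.07, 8.95, 7.82 and 7.69 CPM in the RANKL libraries. It rested on 157 control and 47 RANKL counts in all, and RANKL replicate 2 lay just above control replicate 1. Its log2 fold change was -0.30 (SE 0.26, 95% interval -0.84 to 0.24, edgeR adjusted p = 0.44), an interval that includes both 0 and a fall as large as that of Ccnd2. The summed CPM of both E-type cyclins was 27.1 to 31.4 in control and 18.6 to 24.7 in RANKL libraries, without overlap. Of single genes tested, 24.6% did not overlap either. In RANKL replicate 1 the sum rested on 5 counts of Ccne1 and 7 of Ccne2, and it was not tested. Neither gene passed alone.

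p27, the brake on CDK2, and E2F1, the factor that acts after the D-type kinases, overlapped between the groups and did not pass the test. Cdkn1b (GRCm38 chr6:134920401-134925513) ran from 32.9 to 38.6 CPM in control and from 26.8 to 37.4 CPM in RANKL libraries. Its log2 fold change was -0.13 (95% interval -0.46 to 0.19, edgeR adjusted p = 0.58). For each Cdkn1b count there were 123.9, 108.6, 130 and 123.2 D-type cyclin counts in the control libraries, against 90.3, 106, 82.5 and 69.7 in the RANKL libraries. This ratio did not overlap between the groups, and its numerator is mostly Ccnd2.

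E2f1 (GRCm38 chr2:154559407-154569892, minus strand) stood at 36.2, 36.2, 37.8 and 49.9 CPM in the control libraries, against 42.0, 31.7, 43.8 and 44.5 CPM in the RANKL libraries. Control replicate 4, the shallowest library, was the highest and RANKL replicate 2 the lowest. The means were 40.0 ± 6.62 and 40.5 ± 5.98 CPM (SD, n = 4 each), and the log2 fold change was 0.10 (95% interval -0.22 to 0.41, edgeR adjusted p = 0.7). With the library total as a covariate the value was -0.04, so that no direction can be given for E2f1.

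Ranked by mean CPM, Ccnd2 led the control group by 14.2 times the next gene, Cdk4, and the RANKL group by 7.33 times the next gene, Ccnd1. Cdk4 and Ccnd1 overlapped with each other in both groups and changed places. Cdk6 and then Ccnd3 followed in both groups, each apart from its neighbours. E2f1 and Cdkn1b overlapped in both groups. The last places in the control group were Ccne2, Cdk2 and Ccne1, whose neighbouring ranges overlapped, and in the RANKL group Cdk2, Ccne2 and Ccne1, where Cdk2 overlapped with Cdkn1b and lay above Ccne2 in every library. The library ranges were read from counts near transcript ends, 1 per read and not per length.

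**Figure D3:**
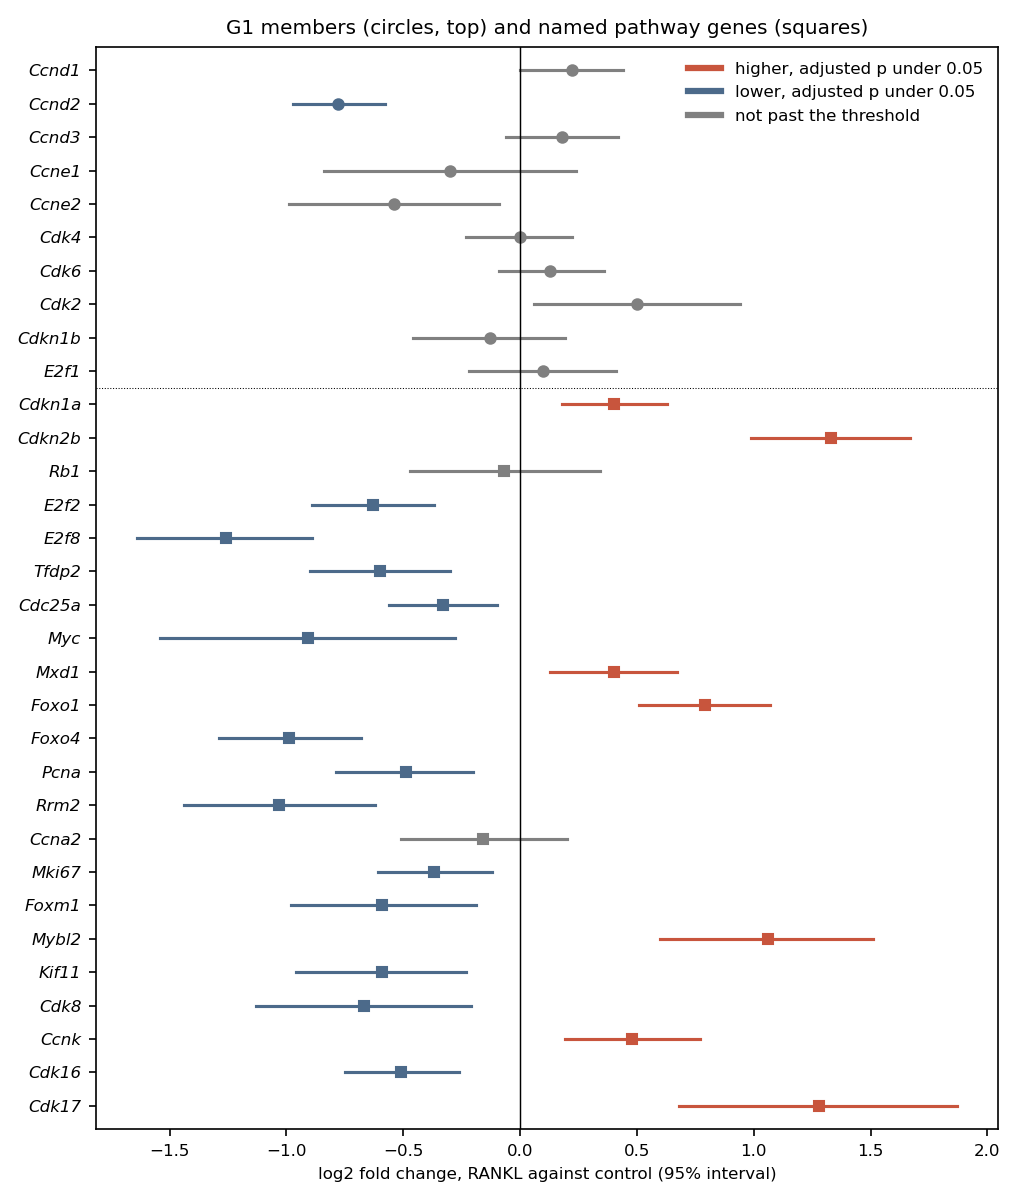
Log2 fold change of RANKL against control with its 95% interval from edgeR, for the 10 members (circles, above the dotted line) and the named pathway genes (squares). Of the members only the interval of Ccnd2 is in the color of a call, at -0.78, while Cdkn2b (1.33) and E2f8 (-1.26) mark the outer values among the inhibitors and E2F factors.

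The profile of Ccnd2 over the 8 libraries was closest to those of Prkar2a, Bcl2l13 and Gstm3 among 6646 genes with a mean of at least 20 CPM. Prkar2a, a regulatory subunit of protein kinase A, differed from it by a root mean square of 0.0494 on the centred log2 CPM scale. Its mean level was 598.5 CPM in control and 362.5 CPM in RANKL libraries, a log2 fold change of -0.72. Bcl2l13, a mitochondrial protein of the BCL2 family, followed at a distance of 0.0608, and Gstm3, a glutathione S-transferase, at 0.0619.

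Around the members, 98 genes of the same machinery were listed in 9 groups, of which 94 could be tested, 8 being higher and 19 lower with RANKL. Pooled over both directions that was 28.7% called, against 25.9% of all genes tested. By direction, the 8 higher and 19 lower of 94 stand beside 13.6% higher and 12.4% lower over all genes tested. The same shares are the background for the count of each list below. The median log2 fold change of the 94 was -0.18, against 0.00 over all genes tested. Without RANKL replicate 3 the number of higher genes was 5.

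Among the other CDK inhibitors, 2 of 5 tested genes rose and none fell. Cdkn2b (p15), an inhibitor of CDK4 and CDK6, stood at 22.9, 17.7, 15.2 and 17.2 CPM in the control libraries, against 51.7, 48.9, 45.9 and 46.1 CPM in the RANKL libraries. The groups lay far apart, and the log2 fold change was 1.33 (95% interval 0.99 to 1.67, edgeR adjusted p = 2.5e-07). Cdkn1a (p21), which inhibits CDK2 and is a target of p53, ran from 108.3 to 137.1 CPM in control and from 145.2 to 179.9 CPM in RANKL libraries, a log2 fold change of 0.40 (edgeR adjusted p = 0.0072). Without RANKL replicate 3 it was 0.33 and not past the threshold. Cdkn2a was below the filter, at 0 to 1.07 CPM in control and 1.65 to 3.23 CPM in RANKL libraries. p27, described above, had no call.

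Of the pocket proteins, which bind E2F, 0 of 3 passed, and Rb1 had a log2 fold change of -0.07 (edgeR adjusted p = 0.84). Of 9 other E2F and DP genes, 0 rose and 3 fell, with a median of -0.47. E2f8, a repressor of the E2F family, stood between 36.8 and 56.8 CPM in control and between 16.1 and 19.3 CPM in RANKL libraries (log2 fold change -1.26, edgeR adjusted p = 3.8e-06). E2f2, an activator like E2f1, stood between 79.1 and 93.3 CPM in control and between 45.2 and 64.0 CPM in RANKL libraries (-0.63, adjusted p = 0.00034). Tfdp2, a dimer partner of E2F factors, stood between 49.2 and 68.8 CPM and between 33.9 and 37.1 CPM (-0.60, adjusted p = 0.0026). None of these 3 overlapped between groups, and of all genes tested 24.6% did not overlap either. The 3 were named because they passed the test on these same libraries, so that the lack of overlap adds no separate support. All 3 kept their call in every alternative, whereas E2f1 had no call.

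Of the genes that activate CDKs, 1 of 6 passed: Cdc25a, the phosphatase that removes the inhibitory phosphate from CDK2, at a log2 fold change of -0.33 (edgeR adjusted p = 0.03). Its groups overlapped through RANKL replicate 4. The call ended without control replicate 2 or 3 or RANKL replicate 1, 2 or 3, with log2 fold changes between -0.40 and -0.26 over all left-out libraries. Of 10 genes for the ubiquitin-dependent turnover of cyclins and p27, 0 passed, with a median of -0.15.

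Of 8 tested transcription factors that act on G1 genes, 3 rose and 3 fell. Foxo1, which can drive Cdkn1b, rose from 42.7 ± 8.03 to 79.1 ± 10.4 CPM (SD, n = 4 each), by 0.79 on the log2 scale, while its relative Foxo4 fell from 69.4 ± 9.34 to 35.7 ± 4.91 CPM (-0.99). Mxd1, an antagonist of MYC, had a log2 fold change of 0.40, and its call ended without control replicate 1 or RANKL replicate 1, 3 or 4 (0.36 to 0.46 over the left-out libraries), and it stood at 0.22 with the library total as a covariate. Myc, an activator of Ccnd2 and Cdk4, was low, at 8.36 to 15.5 CPM in control and 3.44 to 6.46 CPM in RANKL libraries. Its log2 fold change was -0.91, and its call ended without control replicate 1 or RANKL replicate 2, 3 or 4 (-0.97 to -0.77 over the left-out libraries).

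Of 20 S phase genes that E2F drives, 7 fell and 0 rose, with a median of -0.29. That was 35% called, against 25.9% of all genes tested, of which 12.4% were lower and 13.6% higher. Rrm2, a subunit of ribonucleotide reductase, went from 30.4 ± 5.28 to 13.7 ± 3.03 CPM (SD over 4 libraries each, -1.03 on the log2 scale). Pcna, the sliding clamp of DNA polymerases, had a log2 fold change of -0.49, and -0.38 and no call without RANKL replicate 4. Ccna2, the cyclin that follows the E-type cyclins on CDK2, was not past the threshold (-0.16, edgeR adjusted p = 0.56), and 0.04 with the library total as a covariate. Of the 20 values, 18 lay below 0, against 4984 of 9971 over all genes tested. The list thus stood lower than the G1 members, whose values split evenly about 0. This difference between the lists was not tested.

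Of 15 G2 and M phase genes, 1 rose and 3 fell. Mybl2, which encodes B-MYB and is itself an E2F target, had a log2 fold change of 1.06, against -0.59 for Foxm1, -0.59 for the spindle motor Kif11 and -0.37 for the proliferation marker Mki67. Foxm1 lost its call without control replicate 2 or RANKL replicate 2, 3 or 4 (-0.67 to -0.47 over the left-out libraries), and its exons overlap those of other genes on the same strand, which makes its counts uncertain. With the library total as a covariate Mybl2 stood at 0.72 and had no call, and Kif11 had none there or in DESeq2. Mki67 lost its call without control replicate 4 or RANKL replicate 1 or 2 (-0.43 to -0.30). Of 18 tested cyclins and CDKs outside G1, 2 rose (Cdk17 at 1.28 and Ccnk at 0.48) and 2 fell (Cdk8 at -0.67 and Cdk16 at -0.51). Cdk17 stood at 0.78 with the library total as a covariate, with no call. Ccnk had no call without RANKL replicate 4 (0.31), and Cdk8 none without control replicate 3 or 4 or RANKL replicate 3 or 4 (-0.90 to -0.39 over the left-out libraries).

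**Figure D4:**
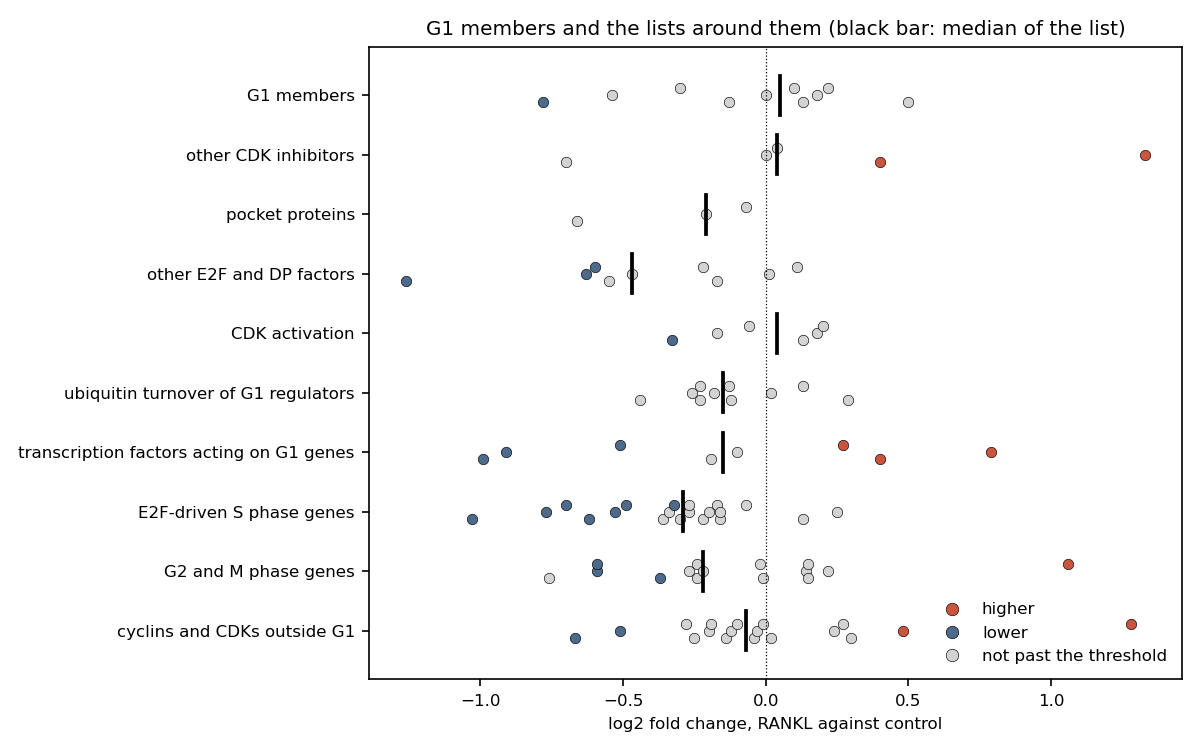
Log2 fold change of RANKL against control for each tested gene, in a row for the G1 members and a row for each of the 9 lists around them. Points are genes, colored by call, and the black bar is the median of the row. The members center on 0.05, and the other E2F and DP factors (-0.47) and the S phase genes (-0.29) lie to the left.

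E2F factors bind promoters at short motifs, and the promoters of 7 of the 10 members were at hand in RefSeq (GRCm38.p6). Those of Ccnd1, Ccnd2 and Ccne2 were not at hand and were not searched. The 250 bases before each start were searched on both strands for TTTCCCGC, TTTCGCGC, TTTGCCGC and TTTGGCGC. Of 32851 mouse promoters of this length, 1.86% held at least 1 of these. Among the 7 members searched, Cdk2 was the only match. For E2f1 and Cdk6 the RefSeq start lay 466 and 2408 bases inside the gene, so that the window fell within it. Of 16 S phase genes with a promoter, 6 matched (Cdc6, Mcm5, Mcm6, Mcm7, Pola1 and Uhrf1). A gene counted here if any of its promoters matched, whereas the 1.86% is per promoter. Mcm7 and Uhrf1 each had a further promoter without a match. For Cdc6, Mcm7 and Uhrf1 the matching start lay 350, 539 and 992 bases inside the gene. The list was made of genes known as E2F-driven, so that its matches are no independent result. The promoter of Cdk2 (chr10:128705052-128705301, minus strand) is shown as the only member with a match, with the reverse complement of TTTCCCGC in capitals, 140 bases before the start. That of Cdc25a (chr9:109875329-109875578, plus strand) is shown because the gene was called lower and holds TTTGGCGC, in capitals, 67 bases before the start. That of Cdkn2b (chr4:89311033-89311282, minus strand), the largest rise among the inhibitors, held none of the 4 motifs. A match describes letters in the window and is no measurement of binding.
Cdk2: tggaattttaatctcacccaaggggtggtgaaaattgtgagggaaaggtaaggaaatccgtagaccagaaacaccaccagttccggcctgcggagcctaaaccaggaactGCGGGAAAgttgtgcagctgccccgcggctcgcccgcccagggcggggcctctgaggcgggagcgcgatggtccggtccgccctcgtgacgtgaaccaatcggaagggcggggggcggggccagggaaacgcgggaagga
Cdc25a: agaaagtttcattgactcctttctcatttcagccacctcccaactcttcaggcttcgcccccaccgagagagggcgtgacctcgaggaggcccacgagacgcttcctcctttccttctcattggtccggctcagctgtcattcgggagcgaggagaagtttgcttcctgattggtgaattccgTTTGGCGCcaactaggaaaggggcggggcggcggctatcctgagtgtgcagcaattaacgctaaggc
Cdkn2b: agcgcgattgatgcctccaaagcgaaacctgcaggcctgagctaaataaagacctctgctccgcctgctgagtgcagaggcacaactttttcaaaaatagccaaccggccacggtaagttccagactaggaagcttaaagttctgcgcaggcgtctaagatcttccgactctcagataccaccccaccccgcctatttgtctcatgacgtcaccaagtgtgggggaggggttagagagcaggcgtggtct

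Ccnd2 passed in all 17 alternatives, with log2 fold changes from -0.82 to -0.73. Ccnd3, Cdk6, Cdkn1b, Cdk4 and E2f1 passed in none of 17, and Ccne1 in none of the 16 that could fit it. With single libraries left out, the number of members called lower was 2 without control replicate 3 or RANKL replicate 4, through Ccne2. The number called higher was 1 without control replicate 1 or RANKL replicate 3, through Cdk2, and 1 without control replicate 4, through Ccnd1. With the replicate number as a block it was also 1, through Cdk2.

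**Figure D5:**
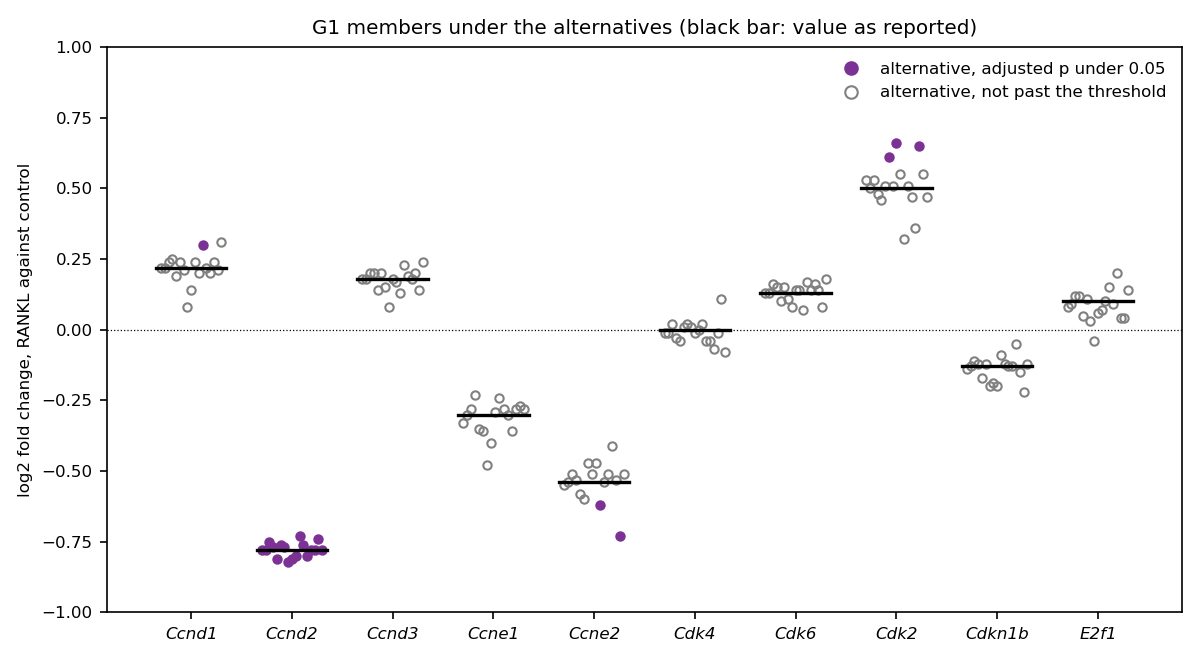
Log2 fold change of RANKL against control for each member under each alternative setting (points, filled where the adjusted p is under 0.05) and as reported (black bar). All points of Ccnd2 are filled, between -0.82 and -0.73, and a few of Ccnd1, Ccne2 and Cdk2 are.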

How the data were processed

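Total RNA of mouse intestinal organoids was made into 8 QuantSeq 3′ mRNA libraries, 4 control and 4 RANKL-treated, and sequenced as single reads of 50 bases. The authors trimmed reads, discarded those from abundant sequences, aligned with STAR against GRCm38 and ran strand-specific featureCounts on the gene models of Ensembl release 94. What they deposited is the raw count of reads for each gene, not normalized. Reads copied by PCR were counted as reads, and the total per library, 583663 to 7807298, limits the precision of low genes.

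From the counts, edgeR 4.0.16 (R 4.3.3) compared RANKL with control by quasi-likelihood after TMM scaling and its own low-count filter, adjusted by Benjamini-Hochberg over 9971 genes at a threshold of 0.05. CPM values were scaled by the same factors. Exact two-sided permutation tests used mean CPM. Replicates were compared by a chi-square of their counts per degree of freedom, and none was merged. It was 2.31 to 11.9 for control pairs and 1.25 to 2.6 for RANKL pairs. Control pairs that included the shallow replicate 4 gave 2.31 to 3.01. The chi-square also grows with depth, and the deepest libraries were controls, so that it does not compare the spread of the groups. It cannot tell whether the libraries came from separate cultures. Positions come from GENCODE M21, to which 54495 of 54532 genes matched. The steps were tested on simulated data. The members and gene lists were chosen with earlier results of these data known.

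Genes named outside the members were, in each list, all those past the threshold if 4 or fewer, otherwise the 2 largest rises and 2 largest falls, plus Cdkn1a, Rb1, Mki67, Pcna and Ccna2, and the 3 nearest profiles to the member with the smallest p. A gene that this rule names is not reported here. Cdkn2a, the marker genes and the S phase genes with a motif match were named outside this rule, after their values were seen. Alternatives were DESeq2 size factors, library totals alone, the DESeq2 1.42.0 Wald test, limma-voom (limma 3.58.1), no filter, a minimum of 10 counts per library, a replicate block, a covariate of log2 library total, each library left out, an adjusted p of 0.01 and, chosen after seeing the data, both shallowest libraries left out.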

Additional observations from a re-analysis of the deposited data

Results flagged for a closer look

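Of 72 groups of 4 libraries (36 genes in both conditions), 5 held a library farther from the others than Dixon's 95% critical value allows, where chance gives 3.6 at 1 in 20. For E2f1, control replicate 4 at 49.9 CPM stood above the other control libraries, the next being at 37.8 CPM. Tfdp2 had its highest control value in the same library, at 68.8 CPM against 52.1 CPM for the next. For E2f8, control replicate 3 at 56.8 CPM stood above the next at 39.9 CPM. Ccnk was highest in RANKL replicate 4, at 140.1 CPM against 97.1 CPM for the next. Cdk16 was lowest in RANKL replicate 4, at 101.6 CPM against 136.1 CPM for the next.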

How the results depend on the processing

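Depth limited the low genes most: a count of 1 was worth 1.71 CPM in the shallowest and 0.128 CPM in the deepest library, and counting error is only part of the spread. Ccnd2 kept its direction and its call in every alternative, with log2 fold changes from -0.82 to -0.73, and from -0.81 to -0.73 with single libraries left out. The genes called lower over the whole table numbered 808 with the depth covariate (log2 library total), 707 at an adjusted p of 0.01, and 814 (without RANKL replicate 4) to 1234 with single libraries left out. The genes called higher numbered 1039 to 1367 with single libraries left out. The members called higher were 0 to 1 and those called lower 1 to 2 with single libraries left out. Of the pathway genes, 5 were higher with the depth covariate and 5 at an adjusted p of 0.01, where 10 were lower. With single libraries left out, 5 to 9 were higher and 13 to 18 lower. Whether the replicate numbers pair the libraries was not stated. The deviations of same-numbered libraries correlated at -0.008, -0.034, 0.104 and 0.035, against -0.138 to 0.088 for libraries of unlike number. Values this small cannot decide the question, since counting error in shallow libraries also lowers them. With the replicate number as a block, 2610 genes passed in place of 2587, and 1 member, Cdk2, was called higher (0.61, edgeR adjusted p = 0.027). Foxm1 lost its call there, and the block changed no other call among the named genes. In DESeq2, Cdc25a, Mxd1, Myc, Foxm1, Kif11 and Cdk8 lost their calls, and with the depth covariate Cdc25a, Mxd1, Foxm1, Mybl2, Kif11, Cdk17 and Pcna did. Cdk8 lost its call in limma-voom, Mxd1 with no filter on low counts, and Cdc25a, Myc, Mki67 and Cdk8 without both of the shallowest libraries. Values that changed sign belonged to genes with no call. Cdk4 stood at 0.02 with library totals alone, 0.01 with at least 10 counts in every library, 0.02 with the replicate block, 0.01 with the depth covariate and -0.07 to 0.11 with single libraries left out. E2f1 stood at -0.04 and Ccna2 at 0.04 with the depth covariate, and Rb1 ran from -0.23 to 0.10 with single libraries left out. The cause was not tested. With at least 10 counts in every library, Ccne1 and Ccne2 could not be fitted.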
